A study of Mus musculus with 18 samples.

Results

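Transcript levels were compared between 3 cultures of NIH3T3 cells kept at 42 C for 45 min (heat shock, HS) and 3 control cultures kept at 37 C and labelled 0 min, which are 6 of the 18 mRNA-seq samples of the series. NIH3T3 is a mouse embryonic fibroblast line. All cultures, controls included, expressed DD-GFP, a destabilizing domain fused to superfolder GFP, and were held in Shield-1 (S1), the ligand that keeps this domain folded. The cells were a population sorted for high fluorescence after stable insertion of the fusion gene, so one engineered line stands for each group. The other groups, with 3 cultures each, were HS for 135 min and tunicamycin for 45, 135 or 405 min (Tun), an inhibitor of N-linked glycosylation that unfolds protein in the endoplasmic reticulum. Because the controls were taken at 0 min, 45 min of handling without heat cannot be told apart from 45 min of heat. Nothing in the labels says whether the 3 replicates of a group were separate experiments, so the p-values measure the spread between these cultures.

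In the heat shock response (HSR), misfolded protein in the cytosol and nucleus occupies the chaperones that hold heat shock factor 1 (HSF1) inactive. Freed HSF1 forms trimers and binds heat shock elements, inverted repeats of the pentamer nGAAn, in front of chaperone genes such as those for the inducible HSP70. HSP70 refolds client proteins together with J-domain proteins, which bring it clients and start its ATPase, and with nucleotide exchange factors such as the HSP110 protein Hsph1 and the BAG protein Bag3.

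Because the inducible HSP70 genes had the largest fold changes of the comparison, the 250 bases in front of their transcription start sites are given here from RefSeq (GRCm38.p6), with the paired heat shock pentamers GAANNTTC or TTCNNGAA in capitals. Both genes lie on the minus strand, Hspa1b at chr17:34959239-34959488 and Hspa1a at chr17:34972157-34972406.
Hspa1b: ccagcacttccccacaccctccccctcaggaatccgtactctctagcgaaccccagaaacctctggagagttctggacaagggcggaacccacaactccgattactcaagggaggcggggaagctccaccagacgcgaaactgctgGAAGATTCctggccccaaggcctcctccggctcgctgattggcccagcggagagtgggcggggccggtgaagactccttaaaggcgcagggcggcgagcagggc
Hspa1a: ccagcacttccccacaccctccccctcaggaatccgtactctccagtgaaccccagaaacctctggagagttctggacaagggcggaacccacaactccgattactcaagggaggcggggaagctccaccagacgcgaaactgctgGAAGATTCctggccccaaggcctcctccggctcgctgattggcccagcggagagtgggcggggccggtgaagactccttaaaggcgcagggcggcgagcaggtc
The stretches were the same at 247 of 250 bases (98.8%), and the match began 104 bases before the start in both. The same search found matches close to the starts of Bag3, Dnaja4 and Hsph1, which were picked from the chaperone genes higher in all heated cultures. They are shown as 30 bases on the strand of the gene because these stretches carry the motif. Whether other such genes, Hspa2, Dnajb2 and Bag2 among them, held matches is not given.
Bag3, chr7:128523603-128523632: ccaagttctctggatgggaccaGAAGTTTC
Dnaja4, chr9:54699458-54699487: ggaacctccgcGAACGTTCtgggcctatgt
Dnaja4, chr9:54699496-54699525: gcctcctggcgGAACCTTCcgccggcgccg
Hsph1, chr5:149636287-149636316: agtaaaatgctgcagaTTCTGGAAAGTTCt
The window of Dnajb1, higher in all heated cultures, held no match, and that of Chordc1 held 3 matches to the 3-pentamer and 5 to the 2-pentamer motif. Chordc1 was lower in all heated cultures by a narrow margin. On a scale common to all 18 libraries its culture 3 (20.6 CPM) lay above control 1 (19.9 CPM). Whether matches follow the direction of the difference was not tested. The Hsph1 stretch shown holds 3 pentamers in a row, the motif GAANNTTCNNGAA read on the other strand. Another 2-pentamer match of Hsph1, in chr5:149636351-149636380, is not shown. Each 2-pentamer motif reads the same on both strands, and a 3-pentamer motif holds one of each. Of all 32851 RefSeq promoter windows (250 bases before to 50 after a start), 15.1% held a 2-pentamer motif and 0.603% a 3-pentamer motif. The Bag3 match lies at the end of its window, after the start.

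The 6 libraries held 40134634 to 65532785 reads assigned to genes, and 12731 of the 20207 genes listed had at least 1 read in all 18 samples and were tested. Heated culture 3 stood apart from heated cultures 1 and 2. Culture 3 correlated with the 3 controls at r of 0.981 to 0.991 (log2 CPM, across genes) but with heated cultures 1 and 2 at 0.954 and 0.937, while cultures 1 and 2 correlated at 0.988. On the first principal component (77.6% of the variance) cultures 1 and 2 lay at 72 and 93.2, culture 3 at -32.4 and the controls at -53.6 to -25.9. The log2 ratios of cultures 1 and 2 to the control mean followed the GC content of the transcript, with Spearman rho of 0.593 and 0.579 over 12431 genes, and those of culture 3 did not (0.014). Of 5 equal classes of GC content, genes of the lowest class had median log2 ratios of -0.85, -0.914 and -0.072 in cultures 1, 2 and 3, and those of the highest class had 0.704, 0.9 and -0.0435. Control 1 stood apart from the other controls in the same direction, with medians of -0.483 and 0.369 in those classes. The part of this GC trend in each result was not tested. Counts without overlap use all 3 heated cultures. Over all genes tested, 12.5% were higher and 12.8% lower without overlap, which is the background for these counts. The genes called in the lists without culture 3 follow after the lists. The fibroblast identity fitted the label: all 15 fibroblast markers had reads, at a summed 34100 to 42000 CPM in the controls and 45100 to 62900 in the heated cultures, and Epcam, Esrp1, Emcn, Emr1, Gad1, Myod1 and Myog were at 0 in all 6 libraries. Some markers of other cell types did have reads (7 of 9 epithelial, 5 of 6 endothelial, 7 of 8 leukocyte, 4 of 5 neuron and 5 of 7 muscle and adipocyte markers), at a summed 11.9 CPM or less for each list in each library.

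**Figure D1:**
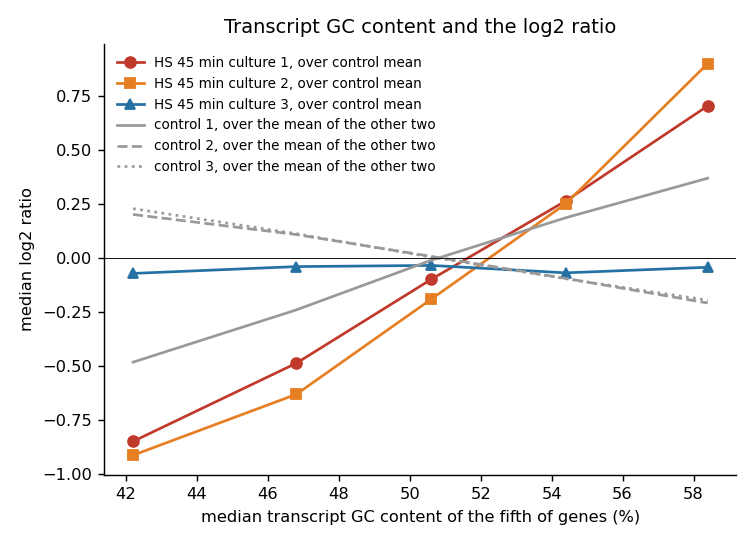
Median log2 ratio (vertical axis) of genes in 5 classes of transcript GC content (horizontal axis, %). Colored lines are the 3 heated cultures over the control mean and grey lines are each control over the other two; heated cultures 1 and 2 run from -0.85 and -0.914 to 0.704 and 0.9, whereas culture 3 stays between -0.072 and -0.0349.

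Across all genes, cultures 1, 2 and 3 had 1235, 1820 and 137 genes at least 2-fold above the control mean, and 2394, 2983 and 326 genes at least 2-fold below it. By the same measure, control 1 had 596 genes above and 908 below the mean of the other controls. In all 3 heated cultures 82 genes were at least 2-fold higher and 103 at least 2-fold lower, out of 1086 and 2065 that were so in both cultures 1 and 2. In edgeR's quasi-likelihood test on the 3 HS and 3 control cultures, no gene passed an adjusted p under 0.05 in either direction (0% of the genes tested). At an unadjusted p under 0.05 there were 1568 higher and 912 lower genes (12.3% and 7.16%). The lowest adjusted p was 0.192, shared by Hspa1a, Hspa1b, Dnajb1, Slc30a1, Dedd2, D4Wsu53e and Bhlhe40. When all 18 samples shared one estimate of the spread (the shared fit), 925 genes were higher and 420 lower at an adjusted p under 0.05 (7.27% and 3.3%). DESeq2 called 386 higher and 65 lower (3.03% and 0.511%), and edgeR's exact test 254 and 41 (2% and 0.322%). Without heated culture 3 the quasi-likelihood test called 2737 and 3049 genes (21.5% and 23.9%).

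The values of the 3 heated cultures all lay above those of the 3 controls for 1596 genes (12.5% of those tested) and all below for 1634 (12.8%). A gap of at least 2-fold between the nearest heated and control cultures remained for 42 higher and 22 lower genes (0.33% and 0.173%). Among the 42 were genes for cytosolic chaperones and their partners (Hspa1a, Hspa1b, Dnajb1, Dnaja4, Bag3), the secreted chaperone Clu, AP-1 and ATF transcription factors (Fos, Atf3), the growth arrest genes Gadd45b and Gadd45g, and the clock genes Bhlhe40 and Dbp. The others were Phlda1, D4Wsu53e, Dedd2, Slc30a1, Stra6, Fgf21, Tnfsf9, Tsc22d3, Arc, Ier5l, Serpinf2, Rbm12b, Fam43a, Spata13, Runx1t1, Atoh8, Atg9b, Col22a1, Col28a1, Gpr179, Hsd17b1, Lmtk3, Lzts1, Wnt1, Zfp36l3, 1700102P08Rik, Dlx4, Irx4, Npb and Pi16. For the last 4 of these all controls were at or under the level of 3 reads. Of the 42 genes, 31 had a mean of at least 50 reads in the heated cultures. In the RefSeq windows, 6 of the 30 genes of the 42 that could be matched held a 2-pentamer motif (20%), against 13.8% of the 10020 tested genes with a window. None of the 30 held the 3-pentamer motif (0.559% of tested genes). The 22 lower genes were Vip, Ovgp1, Tmem144, Actg2, Clca1, Has2, Cxcl5, Bbs12, Sdcbp2, Arl6ip1, Tnfrsf26, Wisp3, Adam32, Slc7a3, Cpxm1, Tgm3, Lrp2, Selp, Parvg, Csl, 1700019G17Rik and Hapln1, and 4 of the 15 matched held a 2-pentamer motif (26.7%). Only 12 of the 22 lower genes had a mean of at least 50 reads in the controls. For Hapln1 all heated cultures were at or under the level of 3 reads. Among higher genes, the gap stood at 2.01-fold for Ier5l, just inside the limit, and at 1.94-fold for Amotl2, just outside it.

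**Figure D2:**
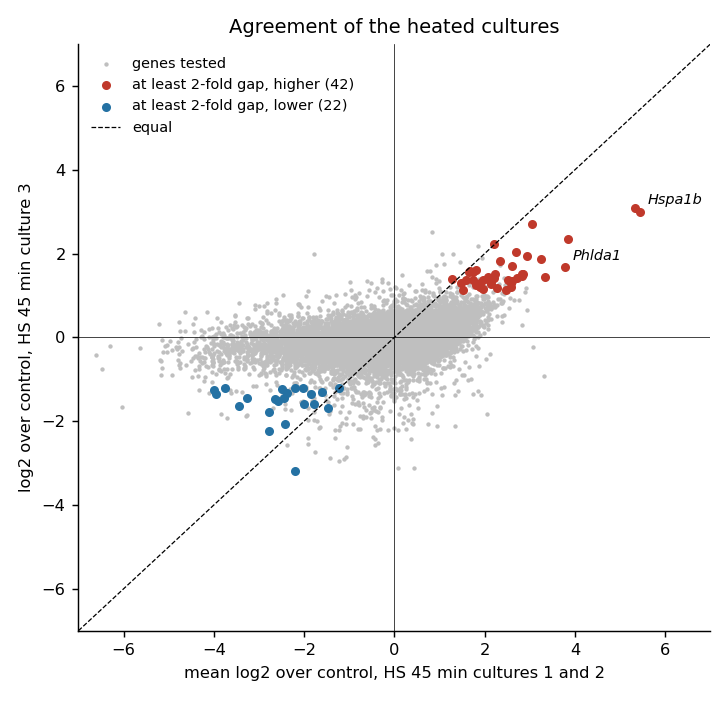
Each point is one of 12731 genes, placed by the mean log2 ratio to control of heated cultures 1 and 2 (horizontal axis) and by that of culture 3 (vertical axis). The cloud is flat, with most genes near 0 in culture 3, and the 42 higher (red) and 22 lower (blue) genes with a 2-fold gap lie mostly between the horizontal axis and the dashed line of equal ratios.

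The inducible HSP70 genes led the comparison. Hspa1b was at 6.14, 5.36 and 5.33 CPM (counts scaled to library size with TMM over the 6 libraries) in the controls and at 273, 217 and 44.8 CPM in heated cultures 1, 2 and 3. Its log2 fold change was 4.99 ± 0.66 (SE, n = 3 against 3 cultures), with an adjusted p of 0.192 in edgeR's quasi-likelihood test and 0.0027 in the shared fit. Culture 3 was the lowest heated culture, yet 7.30-fold above the highest control. Hspa1a was at 1.39, 1.97 and 1.63 CPM in the controls and at 87.7, 50.8 and 14.1 CPM after heat, a log2 fold change of 4.93 ± 0.67 (adjusted p of 0.192, shared fit 0.0021). The coding regions and promoters of both genes are nearly identical, so reads could have been split between them. Their sum was 7.54, 7.33 and 6.96 CPM in the controls and 361, 268 and 58.9 CPM after heat. The files place Hspa1b at chr17:35093374-35096183 and Hspa1a at chr17:35106304-35109101 of mm9.

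Of the 12 HSP70 and HSP110 genes tested, 4 were higher in all heated cultures without overlap and none was lower (background 12.5% and 12.8%). The median log2 fold change of the 12 was 0.13 (all genes -0.03). Hsph1, the heat-inducible HSP110, was at 155, 229 and 206 CPM in the controls and at 491, 285 and 486 CPM after heat. Culture 2 was the low culture for Hsph1, and culture 3 was as high as culture 1. The log2 fold change was 1.10 ± 0.29 (adjusted p of 0.227, shared fit 0.019). Hspa2, an HSP70 abundant in the testis, was at 15.5 to 18.2 CPM in the controls and at 30.6, 34.4 and 19 CPM after heat. The constitutive Hspa8 was at 4099, 4736 and 4611 CPM in the controls and at 3978, 4173 and 4482 CPM after heat, a log2 fold change of -0.09 ± 0.22. For the other members, whose groups overlapped, log2 fold changes were 0.56 for Hspa12b, 0.20 for Hspa12a, 0.06 for Hspa4, -0.23 for Hspa1l, -0.27 for Hspa4l (0.22 with an offset for GC content), -0.57 for Hspa14 and -1.56 for Hspa13. Hspa13, an HSP70 of the microsomes, was at 1.62 and 1.83 CPM in cultures 1 and 2 but at 15.2 in culture 3, within the range of the controls (13.3 to 22.3).

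The deposited RPKM, which divide by gene length, allow levels to be compared between genes. In the controls Hspa8 stood at 1638 to 1997 RPKM and Hsp90ab1 at 970.8 to 1687, while Hspa1b stood at 1.70 to 1.84 and Hspa1a at 0.419 to 0.623. After 45 min Hspa1b reached 71.5, 54.3 and 14.3 RPKM and Hspa1a 23.1, 12.8 and 4.51. The inducible genes thus remained below the constitutive Hspa8 (1390, 1395 and 1912 RPKM) in every heated culture.

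Among J-domain proteins and BAG proteins, the partners of HSP70, the cultures were even for Dnajb1 and uneven for Dnaja4 and Bag3. Dnajb1, the HSP40 induced by heat, was at 56, 68.7 and 66.6 CPM in the controls and at 199, 208 and 192 CPM after heat, so that culture 3 was as high as the other heated cultures. Its log2 fold change was 1.65 ± 0.19 (adjusted p of 0.192, shared fit 1.9e-05). Dnaja4 was at 4.89, 5.66 and 5.20 CPM in the controls and at 25.9, 25.2 and 11.8 CPM after heat (log2 fold change 2.0 ± 0.35, adjusted p of 0.227, shared fit 0.0044). With Dnajb2 (log2 fold change 1.57) these were the 3 of 16 J-domain genes without overlap, all higher (background 12.5%). Dnajb4 and Dnajc2, at the other end of the list, had log2 fold changes of -0.89 and -0.45 with overlap. Bag3, which links HSP70 to autophagy, was at 83.3, 101 and 89.6 CPM in the controls and at 600, 602 and 246 CPM after heat (log2 fold change 2.40 ± 0.37, adjusted p of 0.227, shared fit 0.0034). Bag2, a cochaperone of the same family, was at 37.3 to 40.9 CPM in the controls and at 65.4, 71 and 43.1 after heat. Bag5 and Cryab, a lens and muscle small heat shock protein, differed by log2 -0.05 and -0.04. Hspb1 (HSP27) was nearly silent, at 0.0174 to 0.171 CPM in the controls and at 1.54, 0.743 and 0.0566 CPM after heat.

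HSP90 and its cochaperones were mostly within the range of the controls or uneven between cultures. Of 19 tested genes 1 was higher without overlap (Ahsa1, an activator of the HSP90 ATPase, log2 0.43) and 1 lower (Chordc1, log2 -1.44). Chordc1 was lower by a narrow margin, and both counts were under the background of 12.5% and 12.8%. The inducible Hsp90aa1 was at 602, 962 and 984 CPM in the controls and at 397, 149 and 930 CPM after heat, below the controls only in cultures 1 and 2 (log2 fold change -0.79 ± 0.59). Fkbp4, an immunophilin of the HSP90 machine, was at 509 to 532 CPM in the controls and at 1004, 1202 and 526.6 CPM after heat, and Unc45a, a myosin chaperone that binds HSP90, had a log2 fold change of 0.67 with overlap. The collagen chaperone Serpinh1 (HSP47) was at 1427 to 1691 CPM in the controls and at 3128, 3859 and 1861 CPM after heat (log2 fold change 0.94 ± 0.31, adjusted p of 0.23, shared fit 0.04). Subunits of the TRiC chaperonin, which folds actin and tubulin, had a median log2 fold change of -0.84. Of the 9 subunits, 3 (Cct3, Cct5 and Cct7) were lower without overlap (background 12.8%). By culture the TRiC medians were -1.12, -1.67 and -0.344. The groups overlapped for Cct2, which was at 382, 592 and 594 CPM in the controls and at 91, 28.4 and 415 CPM after heat, and for Tcp1, which had a log2 fold change of -1.19. In none of these TRiC genes did the shared fit pass the threshold.

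**Figure D3:**
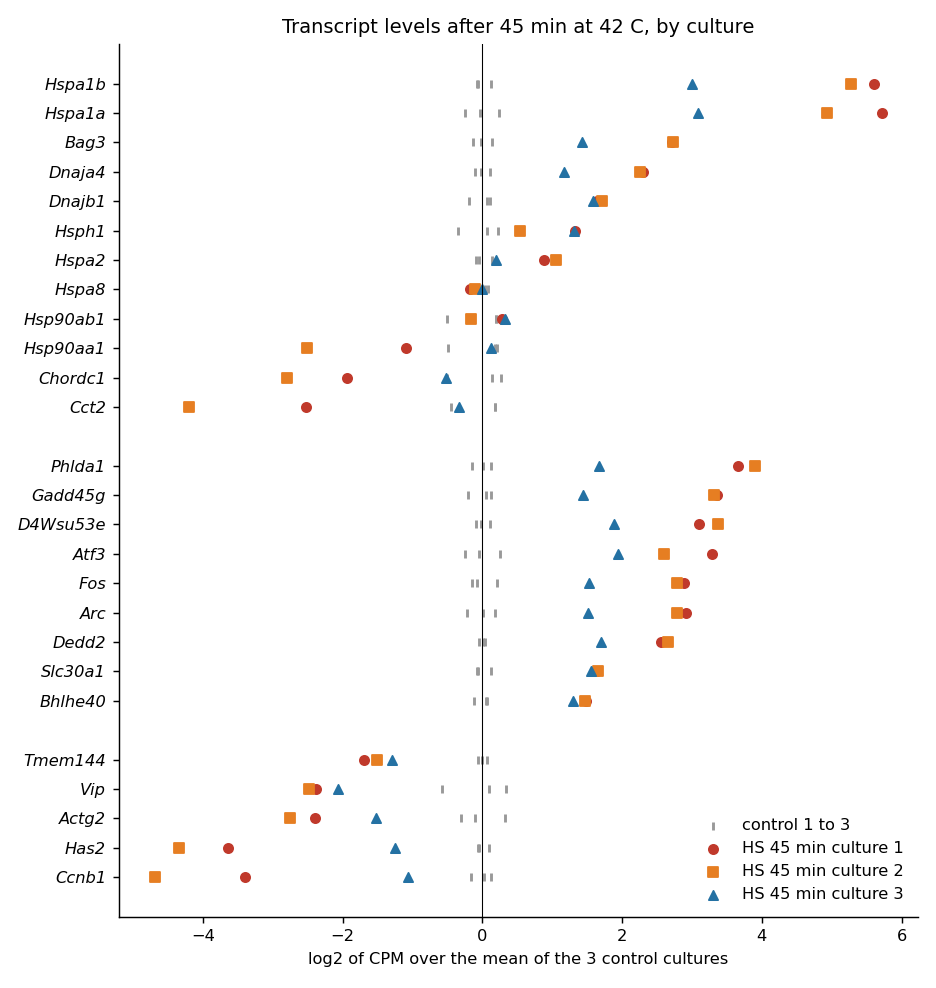
Log2 of CPM over the mean of the 3 controls (horizontal axis) for 26 genes, with grey ticks for the controls and colored symbols for the 3 heated cultures. Hspa1b, Hspa1a, Bag3, Phlda1 and Gadd45g are far lower in culture 3 than in cultures 1 and 2, whereas Dnajb1, Slc30a1 and Bhlhe40 are nearly equal in all heated cultures.

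Among genes of the regulators themselves none passed the shared fit. Hsf1 was at 92.5 to 114 CPM in the controls and at 163, 176 and 92.6 CPM after heat (log2 fold change 0.51 with overlap). Hsf4 had a log2 fold change of 0.68 without overlap and Hsf2 one of -0.42 with overlap. The sign of these 3 values turned with an offset for GC content, to -0.06, -0.09 and 0.06 for Hsf1, Hsf4 and Hsf2. Hsbp1, which binds HSF1 trimers and restrains them, was lower without overlap, at 77.6 to 93.7 CPM in the controls and at 40.8, 63.4 and 67.8 CPM after heat (log2 fold change -0.58, shared fit adjusted p of 0.1). Of 13 ubiquitin genes and adaptors, 4 were higher without overlap (among them Sqstm1, Ubqln1 and Ubqln4, log2 0.62, 0.65 and 0.29) and Vcp was lower (log2 -0.64). The background was 12.5% higher and 12.8% lower. Ubb, a polyubiquitin gene, overlapped because culture 3, at 135 CPM, lay under the controls (143 to 148 CPM), whereas cultures 1 and 2 were at 272 and 267 CPM. The groups also overlapped for Zfand2a (log2 0.23), Zfand2b (0.18), Zfand5 (-0.43), Rnf126 (0.93), Ubqln2 (0.46) and Rps27a (-1.69), and the GC offset turned the sign for Zfand2b, Zfand5, Rnf126 and also Ubqln4. In the shared fit 0 of the 13 passed. Proteasome subunits, which break down ubiquitin-tagged protein, were lower without overlap in 14 of 37 genes and higher in 0 (background 12.8% and 12.5%). Their median log2 fold change was -0.67, and -0.898, -0.825 and -0.292 by culture. In the shared fit 5 passed, all lower (background 3.3%). Psma2 shows how uneven the cultures were, at 106 to 139 CPM in the controls and at 3, 4.35 and 99.6 CPM after heat, while Psmb3 was at 211.9, 239.8 and 225.4 CPM in the controls and at 134, 110.8 and 140 CPM after heat.

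Immediate-early genes, which respond to signals within minutes without new protein, were also among those higher. Of 34 such genes outside the AP-1 family, 14 were higher and 2 lower without overlap (background 12.5% and 12.8%). In the shared fit 12 and 1 passed (background 7.27% and 3.3%). The median log2 fold change of the 34 was 0.654 (0.856, 0.804 and 0.267 by culture), and 0.288 with an offset for GC content. The AP-1 family, transcription factors of the Fos and Jun kind, had 5 of 14 genes higher without overlap and 0 lower (background 12.5% and 12.8%). In the shared fit 4 were higher (background 7.27%). The median log2 fold change of the family was 0.808, and 0.284 with the GC offset. By culture the AP-1 medians were 0.916, 1.2 and -0.0494, so culture 3 did not share the rise of the family median. Fos was at 1.27, 0.992 and 1.05 CPM in the controls and at 8.13, 7.62 and 3.17 CPM after heat (log2 fold change 2.51 ± 0.42, adjusted p of 0.227, shared fit 0.0067). Atf3, a stress-induced repressor, was at 0.847 to 1.20 CPM in the controls and at 9.86, 6.11 and 3.87 CPM after heat (log2 fold change 2.71 ± 0.42). Both had culture 3 as the lowest heated culture and well above the controls. Jun, at 170 to 192 CPM in the controls, was at 254, 366 and 173 CPM after heat, and Egr1 was at 119 to 174 CPM in the controls and at 185, 168 and 161 CPM after heat, both with overlap. Arc was at 3.01 to 3.96 CPM in the controls and at 26.4, 24.1 and 9.94 CPM after heat (log2 fold change 2.53 ± 0.41). Gadd45g, which binds stress kinases, was at 18.8, 23.6 and 22.3 CPM in the controls and at 220, 215 and 58.4 CPM after heat (log2 fold change 2.93 ± 0.49, shared fit adjusted p of 0.007). Sgk1, a serum-induced kinase gene, went the other way without overlap, at 171, 263 and 239 CPM in the controls and at 92.3, 62.7 and 129 CPM after heat (log2 fold change -1.25 ± 0.31, adjusted p of 0.227, shared fit 0.014). Myc and Klf4 had log2 fold changes of 1.12 and 1.32 without overlap.

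Genes that shut signals down were among those higher in every heated culture. Phlda1 was at 82, 88.1 and 73.2 CPM in the controls and at 1025, 1211 and 259.1 CPM after heat (log2 fold change 3.36 ± 0.55, adjusted p of 0.227, shared fit 0.0066). The MAP kinase phosphatase Dusp1 was at 51.6, 60.9 and 52.1 CPM in the controls and at 209, 169 and 102 CPM after heat (log2 fold change 1.55 ± 0.29, shared fit adjusted p of 0.004). Of 10 such phosphatases 3 were higher without overlap (background 12.5%). Dusp7 (log2 1.04) was the other that passed the shared fit (background 7.27% higher). The median of the 10 was 0.268 (0.388, 0.446 and 0.0361 by culture), and 0.0415 with the GC offset. Among 7 mRNA decay factors, Zfp36, Zfp36l1 and Tob2 were higher (log2 1.76 for Zfp36l1 and 1.34 for Tob2) and Btg1 and Btg2 lower (log2 -0.68 and -0.43) without overlap (background 12.5% and 12.8%). The inhibitory SMAD genes Smad6 and Smad7 had log2 fold changes of 1.80 and 1.34. Of 14 TGF-beta and BMP targets, 9 were higher and 3 lower without overlap (background 12.5% and 12.8%), 8 and 2 in the shared fit (background 7.27% and 3.3%). These included Id3 and Id4 (log2 1.53 and 1.54) on the higher side and Bmp4 and Bambi (log2 -1.93 and -0.58) on the lower, Bmp4 with few reads (0.0372 to 0.514 CPM).

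The integrated stress response, in which phosphorylated eIF2alpha favors translation of Atf4, had a median log2 fold change of 1.05 (1.19, 1.42 and 0.506 by culture) and of 0.65 with an offset for GC content. Of its 15 genes 9 were higher and 1 lower without overlap (background 12.5% and 12.8%), and 9 and 1 passed the shared fit (background 7.27% and 3.3%). Atf4 was at 461, 477.2 and 465.6 CPM in the controls and at 1071, 1362 and 666.3 CPM after heat (log2 fold change 1.14 ± 0.29, adjusted p of 0.227, shared fit 0.016). Its targets Chac1, Ddit3, Stc2, Nupr1 and Sesn2 had log2 fold changes of 1.53, 1.39, 1.05, 0.99 and 0.79. Fgf21, a secreted hormone, was at 0.435 to 0.691 CPM in the controls and at 3.22, 4.01 and 2.27 CPM after heat (log2 fold change 2.51 ± 0.37, shared fit adjusted p of 0.002). Cebpb was at 71.5 to 89.1 CPM in the controls and at 269, 364 and 128 CPM after heat. Gdf15 was near the level of 3 reads (0.0458 to 0.0748 CPM in these libraries), at 0.0174 to 0.0979 CPM in the controls and at 0.484, 0.382 and 0.127 CPM after heat. The amino acid genes of the list did not follow: Asns and Slc7a11 had log2 fold changes of -1.04 and -1.38 with overlap, and Vldlr, a lipoprotein receptor, was lower without overlap (log2 -0.78). Among 20 genes of endoplasmic reticulum stress, 3 were higher without overlap (Herpud1, Dnajb9 and Hyou1), near the background of 12.5%. The median of the 20 was 0.02. Herpud1 was at 48.4, 57.9 and 64.4 CPM in the controls and at 127, 150 and 111 CPM after heat (log2 fold change 1.18 ± 0.22, shared fit adjusted p of 0.003), and Dnajb9 had a log2 fold change of 1.28.

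Metal and oxidative stress genes were split. Slc30a1, the zinc exporter of the plasma membrane, had similar levels in all heated cultures, at 10.9, 12.4 and 10.8 CPM in the controls and at 35.5, 35.8 and 33.5 CPM after heat (log2 fold change 1.62 ± 0.21, adjusted p of 0.192, shared fit 7.6e-05). The metallothionein genes Mt2 and Mt1 had log2 fold changes of 0.85 without and 0.46 with overlap. Hmox1, heme oxygenase 1, was at 91.3, 119 and 102 CPM in the controls and at 234, 249 and 131 CPM after heat (log2 fold change 0.98 ± 0.28, shared fit adjusted p of 0.034). Of 20 genes regulated by NRF2, 4 were higher, Osgin1 (log2 1.32) among them, and 7 were lower without overlap (12.5% and 12.8% over all genes). Gclm, a subunit of the glutathione-producing ligase, had a log2 fold change of -0.11 with overlap, and of 0.43 with the GC offset.

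Of 15 clock genes, 8 were higher and 1 (Arntl) lower without overlap (background 12.5% and 12.8%), the same numbers as in the shared fit (background 7.27% and 3.3%). The median log2 fold change was 0.83 (1.07, 1.02 and 0.458 by culture). Bhlhe40, a repressor of the clock, was at 38.2, 43.1 and 43.8 CPM in the controls and at 117, 116 and 102 CPM after heat (log2 fold change 1.42 ± 0.19, adjusted p of 0.192, shared fit 0.00026). Per2 and Per3, the period genes, had log2 fold changes of 1.56 and 1.68, and Dbp, Tef and Hlf, the PAR bZIP factors, had 1.64, 1.26 and 1.08. Bhlhe41 and Cry2 had 1.66 and 0.83. Arntl (BMAL1), the activator of the clock, was at 18.7, 27.4 and 26.8 CPM in the controls and at 17.7, 16.2 and 15.6 CPM after heat. Its partner Clock was low in cultures 1 and 2 alone, at 20.4 and 13.2 CPM against 58.8 in culture 3 and 56.3 to 68.6 in the controls. With an offset for GC content the median of the clock list was 0.90.

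Collagen genes had the highest median of the lists other than cell type markers, 1.13 (1.25, 1.53 and 0.425 by culture). Without overlap 19 of 28 were higher and 0 lower (background 12.5% and 12.8%), and 16 were higher in the shared fit (background 7.27%). These genes are rich in GC (median 56.3% against 50.6% for all genes tested), and with the GC offset the median was 0.65. Col1a1 was at 11150, 6749 and 7008 CPM in the controls and at 24750, 27360 and 11470 CPM after heat, so culture 3 was 1.03-fold above control 1. Col16a1 was at 194, 201 and 206 CPM in the controls and at 712, 960 and 323 CPM after heat, and Col28a1 was at 0.491 to 0.587 CPM in the controls and at 1.27 to 2.08 CPM after heat. The groups overlapped for Col12a1, at a log2 fold change of -0.33.

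**Figure D4:**
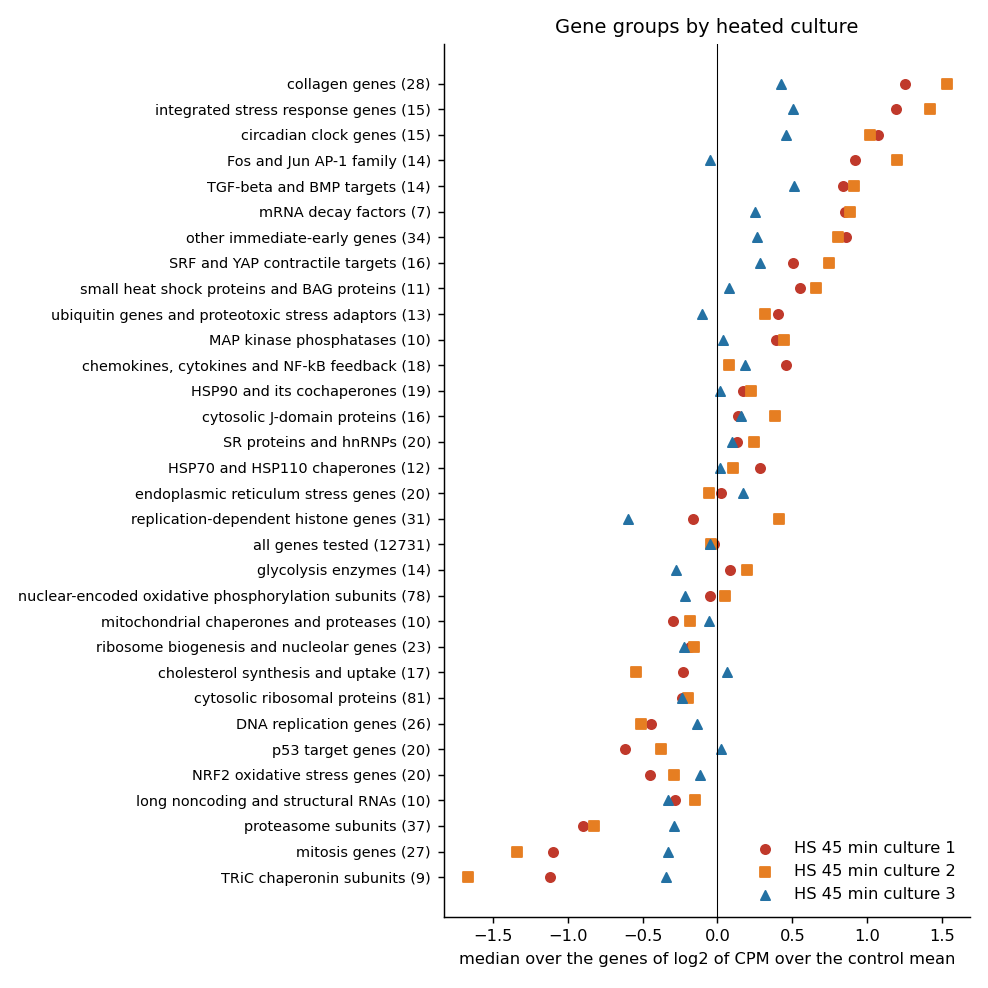
Median log2 ratio to the control mean (horizontal axis) of the genes of each list with at least 7 genes tested (numbers in brackets), one symbol for each heated culture. Collagens, integrated stress response, clock and TGF-beta lists lie above 0 in all cultures, mitosis, proteasome and TRiC lists lie below 0 in all, and culture 3 is nearest to 0 in each of these 7.

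Among genes that were lower, the widest gaps belonged to genes of low level. Vip, a neuropeptide gene, was at 1.42, 2.26 and 2.70 CPM in the controls and at 0.409, 0.382 and 0.51 CPM after heat (log2 fold change -2.28 ± 0.37, adjusted p of 0.227, shared fit 0.0034), and Tmem144 was at 1.10 to 1.20 CPM in the controls and at 0.354, 0.403 and 0.467 CPM after heat. Has2, which makes hyaluronan and has a short-lived transcript, was at 5.36, 5.95 and 5.42 CPM in the controls and at 0.447, 0.276 and 2.35 CPM after heat (log2 fold change -2.42 ± 0.75, shared fit adjusted p of 0.06). The smooth muscle actin gene Actg2 was at 14, 10.4 and 9.05 CPM in the controls and at 2.12, 1.66 and 3.89 CPM after heat (log2 fold change -2.12 ± 0.39, shared fit adjusted p of 0.0042). Amotl2, a YAP target, was at 322.3, 293.4 and 287.6 CPM in the controls and at 1469, 1698 and 626.6 CPM after heat, so the SRF and YAP targets did not move as one (6 of 16 higher, 1 lower without overlap, background 12.5% and 12.8%). Bbs12, Ovgp1, Clca1, Cxcl5, Sdcbp2 and Arl6ip1 had log2 fold changes from -2.50 to -1.67, and Aspn, a small proteoglycan, had -2.77. Aldh1a1, which makes retinoic acid, had -2.32 without overlap. For 1700022C21Rik, Akp3, Snhg9 and Enpp2 (log2 -2.98, -2.60, -2.33 and -2.28) control 1 was the highest control, and the groups did not overlap. Mitosis genes were lower without overlap in 9 of 27 and higher in 0 (background 12.8% and 12.5%). In the shared fit 6 were lower (background 3.3%), and the median was -0.72 (-1.1, -1.34 and -0.328 by culture). Ccnb1, cyclin B1, was at 122, 139 and 150 CPM in the controls and at 13, 5.33 and 65.3 CPM after heat (log2 fold change -2.29 ± 0.81, shared fit adjusted p of 0.079), and the kinesin gene Kif20a was at 138.7 to 188.2 CPM in the controls and at 40.8, 35.4 and 105.3 CPM after heat. Bub1b and Ube2c, with log2 -0.12 and -0.08, overlapped. In bulk RNA, fewer mitotic cells and less of these transcripts per cell cannot be told apart. Of 81 ribosomal protein genes 7 were lower and 0 higher without overlap, under the background of 12.8%.

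The other lists are given by their counts without overlap, against 12.5% higher and 12.8% lower over all genes tested. Mitochondrial chaperones and proteases had 0 of 10, from Lonp1 (log2 fold change 0.69) and Dnaja3 (0.19) to Grpel2 (-0.70) and Hspa9 (-0.84). Of 78 nuclear-encoded subunits of oxidative phosphorylation, 4 were higher, Cox6a2 among them (log2 1.91), and 14 lower, Cox7a2 among them (log2 -1.97). Cox7a2 was at 101 to 136 CPM in the controls and at 4.82, 4.12 and 85.8 CPM after heat, again near the controls in culture 3 alone. Of 26 DNA replication genes 6 were lower, Rfc3 among them (log2 -1.0), and 0 higher. Of 20 SR proteins and hnRNPs, which splice and package transcripts, 5 were higher, with Hnrnpa0 and Hnrnpul2 at log2 1.09 and 1.07, and Tra2a was lower (log2 -0.66, shared fit adjusted p of 0.033). Of 18 chemokine, cytokine and NF-kB feedback genes 6 were higher and 3 lower. Nfkb2 was at 130 to 180 CPM in the controls and at 336, 394 and 183 CPM after heat (log2 1.04), and Ptgs2, cyclooxygenase 2, was at 76 to 138 CPM in the controls and at 17.3, 15.3 and 67.5 CPM after heat (log2 -1.59, shared fit adjusted p of 0.055). Of 20 p53 targets 2 were higher (Sesn2 and Gadd45a) and 3 lower (Eda2r, Sesn1 and Btg2). The imprinted noncoding H19 was at 2.52 to 4.45 CPM in the controls and at 13.6, 11.2 and 7.87 CPM after heat (log2 1.67 ± 0.34, shared fit adjusted p of 0.0066). Of 14 glycolysis enzymes and 17 cholesterol genes, 2 each were lower and 0 higher.

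Without heated culture 3, edgeR's quasi-likelihood test called 21.5% of the genes tested higher and 23.9% lower, against 0% with it. The counts by list below are calls of this test, not counts without overlap. The log2 ratios of heated cultures 1 and 2, which remain in this fit, followed transcript GC content (Spearman rho of 0.593 and 0.579). No GC offset was used in this fit, and the part of the GC trend in its calls was not tested. Among chaperones, 5 of 12 HSP70 and HSP110 genes were higher and 2 lower, 4 of 16 J-domain genes higher and 1 lower, 5 of 19 HSP90 genes higher and 3 lower, and 6 of 9 TRiC subunits lower. Of 13 ubiquitin genes 4 were higher and 2 lower, and of 37 proteasome genes 3 were higher and 22 lower. Of 14 AP-1 genes 10 were higher and 0 lower, of 34 other immediate-early genes 20 and 2, of 10 MAP kinase phosphatases 4 and 0, and of 7 mRNA decay factors 4 and 1. Of 15 integrated stress response genes 11 were higher and 3 lower, of 20 endoplasmic reticulum stress genes 5 and 2, of 20 NRF2 genes 6 and 10, and of 20 p53 targets 5 and 7. Of 14 TGF-beta and BMP targets 9 were higher and 3 lower, of 16 SRF and YAP targets 6 and 3, of 15 clock genes 8 and 2, and of 28 collagen genes 24 and 1. Of 27 mitosis genes 0 were higher and 17 lower, of 26 DNA replication genes 2 and 11, of 81 ribosomal protein genes 9 and 24, and of 78 oxidative phosphorylation subunits 13 and 18. Of 20 SR proteins and hnRNPs 5 were higher and 2 lower, and of 18 genes of the chemokine list 6 and 3. In that fit Hsp90aa1 and Cct2 were called lower (log2 fold changes -1.64 and -3.13, adjusted p of 0.021 and 0.0039 in edgeR's quasi-likelihood test), although neither was lower than all controls in culture 3. Hspa1b, Bag3 and Dnajb1 were called higher there too (log2 fold changes 5.45, 2.72 and 1.68, adjusted p of 0.00018, 0.00034 and 0.00098).

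The tunicamycin cultures of 45 min allow heat to be compared with another protein-folding stress of the same length without using the controls. In edgeR's quasi-likelihood test 8 genes were higher and 18 lower under HS than under Tun (0.0628% and 0.141%), and 719 and 551 in the shared fit (5.65% and 4.33%). All 26 calls of the quasi-likelihood test were lost with the replicate block, and 0 genes were called in either direction when any 1 library other than heated culture 3 was left out (3416 higher and 3671 lower without that culture). The higher genes were Hspa1a, Hspa1b, Dnajb1, Dedd2, Dusp1, Tnfsf9, Serpinf2 and Igf2. On a scale common to all 18 libraries, Dnajb1 was at 36.1, 34.8 and 28.7 CPM in the Tun cultures and at 212, 221 and 202 CPM in the HS cultures, with the controls between them at 56.7 to 69.4 CPM (log2 HS over Tun 2.62 ± 0.17, adjusted p of 0.0207). Hspa1b was at 1.53, 2.04 and 2.94 CPM under Tun, also under all controls (5.36 to 6.22 CPM), and the log2 ratio of HS to Tun was 6.40 ± 0.77 (adjusted p of 0.0455). Dedd2, a death effector domain gene, was at 3.89, 4.15 and 5.31 CPM under Tun and at 34, 36.3 and 18.5 CPM under HS (log2 2.68 ± 0.31, adjusted p of 0.0455). For Igf2 the heated cultures, at 71.8 to 96.1 CPM, overlapped the controls (56.9 to 92.2 CPM) and the Tun cultures lay lower, at 25.3 to 26.7 CPM. The 18 lower genes were Gadd45a, Plk2, Nfil3, Klf11, Arid5a, Acot2, Slc1a4, Socs2, Sfrs5, Cdh3, Flrt1, Rab39b, Tspyl4, Cd209c, Trem3, Gm129, 4932425I24Rik and 9430008C03Rik. Gadd45a was at 12.1 to 14.9 CPM in the controls, at 24.1 to 33.5 CPM under HS and at 164, 176 and 207 CPM under Tun (log2 HS over Tun -2.66 ± 0.19, adjusted p of 0.0207). Sfrs5, a splicing factor of the SR family, was at 62.4 to 77.5 CPM under HS, below the controls (119 to 166 CPM), and at 152 to 203 CPM under Tun.

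Several genes that were higher after heat were also above the controls under Tun, and since both comparisons share those controls the values are given side by side only. Stra6, the receptor for retinol-binding protein, was at 0.247 to 0.743 CPM in the controls, at 3.27 to 4.50 CPM under HS and at 2.29 to 3.68 CPM under Tun. Slc30a1 was at 10.9 to 12.5 CPM in the controls, at 35.3 to 37.9 CPM under HS and at 24.7 to 30.5 CPM under Tun. Bhlhe40 was at 38.7 to 44 CPM, 108 to 125 CPM and 80 to 88.2 CPM, and Tsc22d3, a glucocorticoid-induced leucine zipper gene, at 16.2 to 17.5 CPM, 38.9 to 70 CPM and 57.6 to 72.4 CPM in the same order. Actg2 was low under both, at 1.75 to 4.11 CPM under HS and 1.66 to 2.20 CPM under Tun against 9.10 to 14.2 CPM in the controls. For none of these 5 did HS and Tun differ at an adjusted p under 0.05 in the quasi-likelihood test. That test called few genes, so this does not show equal levels. The HS and Tun ranges of Slc30a1 and Bhlhe40 did not overlap.

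Between 45 and 135 min at 42 C no gene passed the quasi-likelihood test in either direction (0%), and 459 were higher and 446 lower at 135 min in the shared fit (3.61% and 3.5%). The 135 min cultures were uneven too, with Psma2 at 83.9, 3.61 and 48.7 CPM. Across genes, deviations from the group means correlated at r of 0.883 between culture 3 of 45 min and culture 1 of 135 min. Between the cultures numbered 2 the r was 0.75. The GC offset was not run for this comparison. Hspa1b was at 264, 1142 and 1194 CPM at 135 min against 291, 230 and 47.3 CPM at 45 min (log2 135 over 45 min 2.20 ± 0.81, adjusted p of 0.373, shared fit 0.042), and the groups overlapped because culture 1 of 135 min lay within the range of the 45 min cultures. Hsph1 was at 2726, 1241 and 2089 CPM at 135 min and at 523, 301 and 512 CPM at 45 min (log2 2.20 ± 0.39, shared fit adjusted p of 0.00023). Hspa8, which overlapped the controls at 45 min, was at 9909, 8891 and 8419 CPM at 135 min against 4240 to 4726 CPM (log2 1.03 ± 0.22, shared fit adjusted p of 0.00073). Hspa4l, Hspb1 and Clu, at log2 2.10, 5.75 and 3.43, had shared fit adjusted p of 0.0015, 0.0021 and 2.8e-05. Dnajb1 differed less between the times, with 318 to 347 CPM at 135 min and 202 to 221 CPM at 45 min (log2 0.66 ± 0.16, shared fit adjusted p of 0.0033). Atf3 and Mt1 were also higher at 135 min (log2 2.86 and 1.59, shared fit adjusted p of 0.00023 and 0.00049). Dusp1 went the other way, from 108 to 223 CPM at 45 min to 37.6, 69.4 and 51.1 CPM at 135 min (log2 -1.69 ± 0.34, adjusted p of 0.174, shared fit 0.0011), within or near the range of the controls (52.2 to 61.6 CPM). D4Wsu53e, named Rsrp1 in RefSeq, was at 180 to 510 CPM at 45 min and at 97.8, 201 and 136 CPM at 135 min (log2 -1.35 ± 0.44, shared fit adjusted p of 0.045). Fos, Arc, Phlda1 and Gadd45g had log2 differences of -0.80, -0.43, 0.07 and -0.18 with adjusted p from 0.34 to 0.94 in the shared fit.

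**Figure D5:**
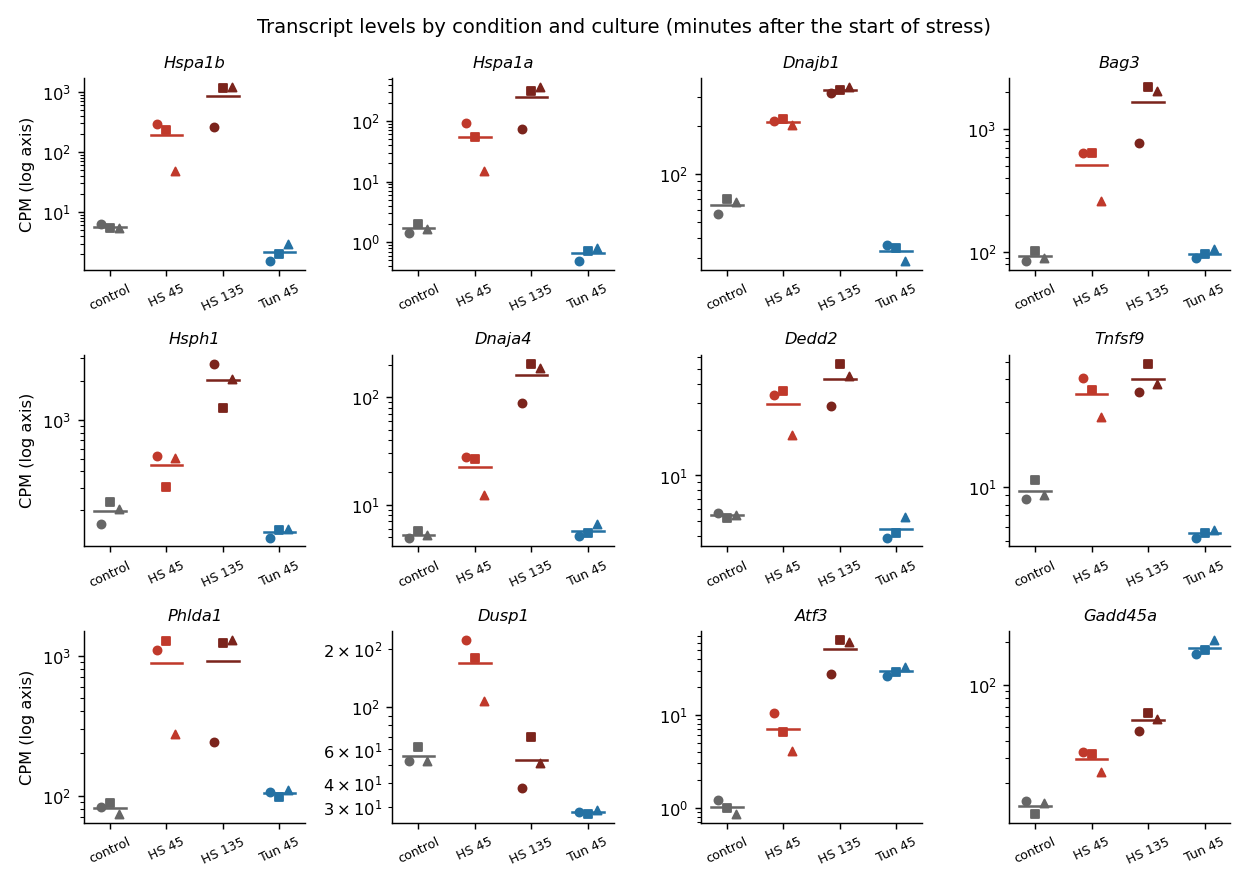
CPM on a log axis of 12 genes in the control, HS 45 min, HS 135 min and Tun 45 min cultures, with one symbol for each culture and a bar at the mean of 3. Hspa1b, Hspa1a, Bag3 and Dnaja4 are higher at 135 than at 45 min in most cultures, Dusp1 is highest at 45 min, and Gadd45a is highest under Tun.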

How the data were processed

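NIH3T3 cells expressing DD-GFP were profiled by mRNA-seq in 6 groups of 3 cultures. The authors aligned reads to mm9 and counted them against RefSeq genes on the DNAnexus platform; the aligner, counter and versions are not given in the sources used here. Poly(A) RNA was used, and the methods describe more than one library preparation without saying which library had which. For each gene the authors deposited an estimated count, the RPKM, a Z-score and a root-mean-square normalized RPKM signal. The deposited estimated counts, not all whole, were rounded and tested; the deposited RPKM served for levels between genes; the deposited score and signal were not tested.

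Genes with at least 1 read in all 18 samples were fitted with edgeR 4.0.16 (TMM, quasi-likelihood test, Benjamini-Hochberg adjustment, threshold 0.05) in R 4.3.3, on the 6 libraries compared. Alternatives included a shared fit of all 18 samples, edgeR's exact test, DESeq2 1.42.0, limma 3.58.1 (voom with sample weights), a GC offset (lowess span 0.3, GC content from the reference transcripts, matched for 96.6% of genes), other filters and scalings, and leaving out each library. No overlap means that all heated cultures lay on one side of all controls. SE is the log2 fold change over the root of F. The procedure was tested on simulated data. Depth was 40134634 to 65532785 reads, at which 3 reads equal 0.0458 to 0.0748 CPM; intervals of counting error were not used.

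Named genes were the 12 with the largest log2 fold change in each direction (no overlap, mean of at least 50 reads in the higher group; none passed the adjusted threshold, so all were taken at an unadjusted p under 0.05), the 10 with the widest gap in each direction, members of the chaperone, HSF and ubiquitin lists, up to 2 at each end of every other list, and genes the study names. Other genes given from the lists were chosen after their values were seen. The comparison, the members and the lists were chosen with earlier results of these data known. Promoter sequences came from RefSeq (GRCm38.p6) and mm9 coordinates from the files. Some genes that the rule names are not reported here.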

Additional observations from a re-analysis of the deposited data

Results flagged for a closer look

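The genes below differed between HS and Tun at 45 min in edgeR's quasi-likelihood test (n = 3 against 3 cultures), which is a test of the difference between the stresses itself. All of these calls were lost with the replicate block, and no gene was called when any 1 library other than heated culture 3 was left out. The GC offset was not run for HS against Tun. Higher under HS, with log2 fold changes of HS over Tun, were Hspa1b (6.40), Hspa1a (6.28), Serpinf2 (3.94), Dedd2 (2.68), Dnajb1 (2.62), Dusp1 (2.54), Tnfsf9 (2.53) and Igf2 (1.68). Lower under HS were 4932425I24Rik (-3.52), Cd209c (-2.75), Gadd45a (-2.66), Cdh3 (-2.64), Trem3 (-2.51), Arid5a (-2.50), Socs2 (-2.37), Rab39b (-2.21), Flrt1 (-2.10), Nfil3 (-2.02), Klf11 (-1.95), Gm129 (-1.92), Plk2 (-1.83), Tspyl4 (-1.60), 9430008C03Rik (-1.43), Sfrs5 (-1.40), Slc1a4 (-1.34) and Acot2 (-1.28). Adjusted p was 0.0207 for Dnajb1 and Gadd45a, 0.0495 for Trem3 and 0.0455 for the others. Nfil3 and Gm129 are clock-linked genes, and Socs2 restrains cytokine signals.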

How the results depend on the processing

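The count of genes called between HS 45 min and control depended on the test. It was 0 higher and 0 lower in the quasi-likelihood test, and under other filters, scalings, the GC offset and a fold threshold. It was 386 and 65 with DESeq2, 254 and 41 with the exact test, 925 and 420 in the shared fit, and 4575 and 4618 with limma voom and sample weights, which gave heated culture 3 a weight of 0.0997. Control 1 and heated culture 2 had weights of 0.254 and 0.573, and the other libraries had 3.76 to 4.67. Leaving out 1 library gave 0 to 2737 higher and 0 to 3049 lower, above 0 only without heated culture 3. HS against Tun gave 8 higher and 18 lower, 748 and 379 with DESeq2, 719 and 551 in the shared fit, and 0 to 3416 and 0 to 3671 without 1 library, again above 0 only without heated culture 3. HS 135 against 45 min gave 0 and 0, 194 and 209 with DESeq2, 459 and 446 in the shared fit, and 0 to 2 lower without 1 library. Genes without overlap numbered 1596 higher and 1634 lower, and without 1 library from 1685 to 4296 and from 1827 to 4318 (highest without heated culture 3; 3413 and 3500 without control 1). The causes were not tested.

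Replicate numbers were checked as pairs. Same-numbered HS 45 min and control cultures deviated from their group means with r of 0.369, -0.232 and 0.316, so the numbers were not taken to pair them. With the replicate block 0 genes were called in each direction between HS and control, HS and Tun (in place of 8 and 18) and 135 and 45 min.

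Of 211 genes named for HS against control, 182 kept their direction in all alternatives. With the GC offset, and with the offset and replicate block, log2 fold changes reversed to 0.0158 and 0.0148 for Bag5, 0.3463 and 0.2763 for Cct4, -0.1206 and -0.1198 for Cdt1, 0.1048 and 0.1031 for Dnajc3, 0.1039 and 0.0612 for Dusp6, -0.1805 and -0.17 for Fosl1, 0.4293 and 0.4026 for Gclm, -0.0629 and -0.0626 for Hsf1, 0.0632 and 0.0541 for Hsf2, -0.0909 and -0.1072 for Hsf4, 0.2188 and 0.2147 for Hspa4l, -0.2591 and -0.2557 for Maff, -0.0172 and -0.0225 for Mvd, -0.0543 and -0.0483 for Mvk, -0.0177 and -0.0225 for Rnf126, -0.0597 and -0.0738 for Ubqln4, -0.4254 and -0.4642 for Zfand2b and 0.1468 and 0.1273 for Zfand5. The offset alone gave -0.0055 for Rpl36, and the offset with the block 0.0479 for Dnajc2 and 0.0271 for Nr4a3. Voom weights gave 0.0189 for Bag5, -0.019 for Col8a1, 0.1738 for Cryab, 0.0069 for Hspa1l, -0.0001 for Hspa4 and 1.1219 for Nr4a3. Library totals gave -0.1093 for Hspa4 and -0.1063 for Dusp16. Without 1 library the sign turned for 10 genes, with log2 fold changes from -0.1408 to 0.2222 for Hspa4, -0.2783 to 0.3057 for Cryab, -0.0629 to 0.4367 for Zfand2a, -0.2686 to 0.0013 for Gclm, -1.3357 to 0.9463 for Nr4a3, -0.2720 to 0.0821 for Ube2c, -0.0300 to 0.3035 for Hsp90ab1, -0.2821 to 0.0109 for Cct4, -0.0013 to 0.0966 for Dusp16 and -0.2323 to 0.0521 for Dusp6. The sign turned without heated culture 3 for Cct4, Dusp6, Ube2c and Zfand2a, without control 1 for Cryab, Hsp90ab1, Hspa4 and Nr4a3, without heated culture 1 for Dusp16 and Hspa4, without heated culture 2 for Cryab, and without control 2 for Gclm and Ube2c. Between 135 and 45 min, Phlda1 reversed to -0.0129 with the block, and without 1 library the values ran from -0.3572 to 0.5236 for Phlda1 and -0.5799 to 0.2489 for Gadd45g.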
